A study of Mus musculus with 10 samples.

Results

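Genes for 5 subunits of the GABA-A receptor (Gabra2, Gabra3, Gabra4, Gabra5 and Gabrb2) and the chloride transporters Slc12a2 (NKCC1) and Slc12a5 (KCC2) were followed as ribosome footprints in the developing mouse neocortex. They were chosen by gene symbol, with no measured value in the rule, although earlier results of these data were known by then. They are 7 of the 22373 genes of the deposited table. All 7 passed the filter of 32 footprints, summed over the 2 libraries of a stage, in at least one stage, as did 13484 genes in all. The study profiled footprints by Ribo-seq, which sequences the mRNA fragments that translating ribosomes shield from nuclease, at 5 stages with 2 libraries each, of which E12.5, E14, E15.5 and E17 are named by the day of gestation and P0 is the day of birth. Every stage came from untreated wild-type CD-1 mice from timed pregnancies, with male and female animals of each litter combined, and the 10 libraries were all digested with RNAse-T1 & RNAse-A. Brains were pooled for each library, and the spread between replicates is that between such pools and not between animals. The comparisons address the timing of changes in the footprint level of these genes over the span of neurogenesis.

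GABA-A receptors are chloride channels built from 5 subunits, most often alpha, beta and gamma, that open on binding GABA. Whether the current through them depolarizes or hyperpolarizes a neuron depends on the chloride gradient: Slc12a2 carries chloride into the cell together with sodium and potassium, and Slc12a5 carries it out together with potassium. In the immature cortex GABA is classically described as depolarizing, and the change to inhibition is classically linked to less of the importer and more of the exporter. The alpha subunit shapes the affinity for GABA and the place of the receptor on the neuron, with alpha5 receptors found mainly outside synapses and alpha4 receptors known for tonic currents. The beta subunit carries part of the GABA binding site.

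Footprint levels are given in CPM, counts brought to a common library total after TMM scaling, which assumes that most genes do not change. They are not divided by coding length, so levels are compared between stages and not between genes. Changes are fitted log2 fold changes with their standard error (SE), and a gene was called changed at a limma-voom p, adjusted by Benjamini-Hochberg over the 13484 genes, under 0.05 and a fold change at least 25% above 1 in either direction. A footprint level depends on the amount of an mRNA and on its occupancy by ribosomes. In tissue lysates, fewer cells of a type and less RNA per cell cannot be told apart.

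Libraries held between 7544404 and 36129988 counts, the lowest being P0 replicate 1. The replicates differed most at P0, where the SD over 4559 well-covered genes of the log2 ratio between them was 0.54, against 0.13 to 0.22 at the other stages. All 7 neocortex markers examined, Emx1, Emx2, Neurod6, Tbr1 and Bcl11b among them, were detected at every stage, with a summed level of 484 to 881 CPM. The summed level of 7 neuronal markers was 2091 to 2135 CPM (E12.5), 6078 to 6315 CPM (E15.5) and 7717 to 8689 CPM (P0), and its part in the results below was not tested.

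Over the whole span, from E12.5 to P0, all 5 receptor subunits and the exporter Slc12a5 rose and the importer Slc12a2 fell. Thus 6 of the 7 genes were called higher at P0, where 30.1% of all genes tested were, and 1 was called lower, where 32% were. The balance over all genes depends on the scaling, since 48.5% of the genes called were higher with TMM and 72% with total counts only, while the 7 calls did not change. The median of the 7 fitted changes was 2.48 on the log2 scale, beside -0.013 over all 13484 genes. These 7 calls were the same in each of the 18 other fits, which changed the tool, the scaling, the filter, the model or the libraries. In the F test over the 5 stages, with no fold threshold, all 7 passed, as did 63.8% of all genes. The rises fell into groups of unequal size, with Gabra5, Slc12a5 and Gabrb2 above 4 on the log2 scale and Gabra2, Gabra4 and Gabra3 between 1.19 and 2.48. The windows around the start sites of the first group are shown here because its members had the largest changes, although footprints do not measure promoter activity.

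Promoter windows of 300 bases (250 before and 50 after the annotated start, RefSeq, build GRCm38.p6) were used for 6 of the 7 genes. There were 10 windows in all, and none was used for Slc12a2. The capitals mark 6 searched motifs on either strand, with none overlapping another here and all written as the sense strand reads. They were TATAAA for the TATA box, CACGTG for the E-box, GGGCGG for the GC box, CAGCACC for the left part of the RE1 element, TGACGTCA for the cAMP response element and GCGGGGGCG for Egr factors. The windows of Gabra5 (chr7:57510010-57510309, minus strand), Gabrb2 (the first of 3, chr11:42420190-42420489, plus strand) and Slc12a5 (both, chr2:164960596-164960895 and chr2:164967738-164968037, plus strand) read as follows.
Gabra5: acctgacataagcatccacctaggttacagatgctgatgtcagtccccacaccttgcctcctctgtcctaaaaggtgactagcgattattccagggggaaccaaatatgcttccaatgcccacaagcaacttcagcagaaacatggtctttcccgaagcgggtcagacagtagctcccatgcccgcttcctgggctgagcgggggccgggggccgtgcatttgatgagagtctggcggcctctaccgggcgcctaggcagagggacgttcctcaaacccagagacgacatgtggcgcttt
Gabrb2: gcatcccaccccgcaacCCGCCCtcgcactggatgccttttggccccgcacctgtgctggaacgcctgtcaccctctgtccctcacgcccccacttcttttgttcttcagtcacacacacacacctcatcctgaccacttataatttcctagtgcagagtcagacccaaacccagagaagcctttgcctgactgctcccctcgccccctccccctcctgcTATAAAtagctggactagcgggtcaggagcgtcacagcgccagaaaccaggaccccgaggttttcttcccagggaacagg
Slc12a5 upstream start: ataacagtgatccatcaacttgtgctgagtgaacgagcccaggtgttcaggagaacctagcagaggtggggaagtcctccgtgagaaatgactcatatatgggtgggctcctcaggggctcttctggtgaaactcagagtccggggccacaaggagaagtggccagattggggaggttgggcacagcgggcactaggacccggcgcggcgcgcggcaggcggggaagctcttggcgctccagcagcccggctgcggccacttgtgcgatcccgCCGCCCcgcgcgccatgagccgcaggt
Slc12a5 downstream start: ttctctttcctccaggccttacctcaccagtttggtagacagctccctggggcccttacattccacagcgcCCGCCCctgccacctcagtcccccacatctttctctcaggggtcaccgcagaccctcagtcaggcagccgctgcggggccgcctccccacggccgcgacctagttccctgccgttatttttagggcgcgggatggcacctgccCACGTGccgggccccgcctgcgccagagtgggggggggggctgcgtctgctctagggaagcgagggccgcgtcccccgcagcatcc
The first Gabrb2 window held TATAAA with its first base 30 bases before the start, and neither of its further windows held any of the 6 motifs. At any place and on either strand, TATAAA was in 3 of the 10 windows, from 2 genes, the other being Gabra3. The 2 Gabra3 windows overlap and share the same TATAAA, which is thus counted in both. TATAAA was in 13.6% of all 32851 windows of this length. In the downstream Slc12a5 window CACGTG, the E-box letters, began 36 bases before the start, a motif held by 7.15% of all windows. GGGCGG, the GC box letters, was in 5 of the 10 windows, from 4 genes, beside 35.7% of all windows. The Gabra5 window held none of the 6 motifs. GC content was 56.7% for Gabra5, 59.0%, 54.7% and 41.0% for the 3 windows of Gabrb2, and 63.7% and 68.3% for Slc12a5, beside a median of 52.7% over all windows. Among the genes with smaller rises it was 70.0% for Gabra2, 58.7% for Gabra4, and 39.3% and 43.0% for Gabra3. The GC content of the 3 genes with the largest rises thus overlapped that of the others, and none of the motifs was in all 3.

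Gabra2 encodes alpha2, the alpha subunit classically most abundant in the fetal cortex. Its level was 37.8 and 36.5 CPM (E12.5), 30.9 and 41.3 (E14), 47.8 and 54.3 (E15.5), 89.1 and 112 (E17), and 73.9 and 95 (P0). The E12.5 and E14 libraries overlapped, both E15.5 libraries lay above all 4 of these, and the E17 and P0 libraries, which overlapped each other, were the highest. The only step called was from E15.5 to E17, at 0.97 (SE 0.18, limma-voom adjusted p = 0.0191). From E14 to E15.5 the change was 0.50 (SE 0.19, limma-voom adjusted p = 0.0656), and this step was called in 6 of the other 18 fits. P0 stood 1.19 above E12.5 (SE 0.19, limma-voom adjusted p = 6.88e-04), the smallest rise of the 6 genes that rose.

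Gabra3 encodes alpha3, another subunit of immature cortical receptors. It gave 1.98 and 1.98 CPM (E12.5), 1.86 and 2.44 (E14), 5.42 and 4.73 (E15.5), 9.97 and 9.99 (E17), and 9.90 and 11.9 (P0). These values form 3 levels, with E12.5 and E14 overlapping, E15.5 alone between them, and E17 and P0 overlapping at the top. Both steps between the levels were called, at 1.23 from E14 to E15.5 (SE 0.18, limma-voom adjusted p = 0.00120) and 0.97 from E15.5 to E17 (SE 0.14, limma-voom adjusted p = 0.0111). The change from E12.5 to P0 was 2.48 (SE 0.18, limma-voom adjusted p = 1.01e-05), or 5.50-fold in mean CPM.

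Gabra4, encoding alpha4, had 4.35 and 5.72 CPM (E12.5), 6.41 and 7.83 (E14), 8.98 and 8.87 (E15.5), 9.84 and 14.1 (E17), and 17.2 and 14.6 (P0). No 2 adjacent stages overlapped, and yet no step between them was called: the 4 changes lay between 0.32 and 0.49, with limma-voom adjusted p from 0.180 to 0.343. Only the whole span was called, at 1.62 (SE 0.22, limma-voom adjusted p = 3.24e-04), a 3.15-fold rise in mean CPM. Among the 7 genes it was the only one with no step between adjacent stages called.

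Gabra5, encoding alpha5, had the largest rise of the 7 genes. From 0.330 and 0.598 CPM (E12.5, 6 and 16 counts) it went to 0.751 and 1.39 (E14), 1.87 and 2.03 (E15.5), 6.10 and 6.19 (E17), and 13.9 and 13.7 (P0). No stage overlapped the next, and the pairs of replicates at E15.5, E17 and P0 lay close together. Its largest step, of 1.66, was from E15.5 to E17 (SE 0.20, limma-voom adjusted p = 0.00743), and it gained another 1.16 by P0 (SE 0.16, limma-voom adjusted p = 0.00327). Of the 7 genes it was the only one called between E17 and P0, and it was called there without any one library but not in a fit of these 2 stages alone, where limma-voom gave an adjusted p of 0.0865. The earlier step from E14 to E15.5 was 0.83 (SE 0.27, limma-voom adjusted p = 0.0412). That call was lost in 11 of the other 18 fits, and the change was 0.47 without E14 replicate 1 and 1.33 without E14 replicate 2. Over the whole span the change was 4.79 (SE 0.38, limma-voom adjusted p = 1.57e-05), a 29.8-fold rise in mean CPM from a level set by 22 counts.

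Gabrb2, encoding beta2, gave 1.54 and 1.83 CPM (E12.5), 3.62 and 3.52 (E14), 14.7 and 16.5 (E15.5), 30.8 and 32.2 (E17), and 25.2 and 34.0 (P0). Each stage up to E17 lay above the one before without overlap, and the P0 libraries fell on either side of those of E17. Its step from E14 to E15.5 was the largest of any of the 7 genes between adjacent stages, at 2.12 (SE 0.17, limma-voom adjusted p = 1.22e-04), and it was called without any one library. From there to E17 it rose by another 1.02 (SE 0.14, limma-voom adjusted p = 0.00921). Between E17 and P0 the change was -0.07 (SE 0.14, limma-voom adjusted p = 0.742), which changed sign to 0.04 with total counts only and to 0.11 without P0 replicate 1. Between E12.5 and E14 the change was 1.05 (SE 0.24, limma-voom adjusted p = 0.0787), a step called in DESeq2, with sample quality weights and without either P0 library. The whole span came to 4.12 (SE 0.22, limma-voom adjusted p = 1.84e-06).

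**Figure D1:**
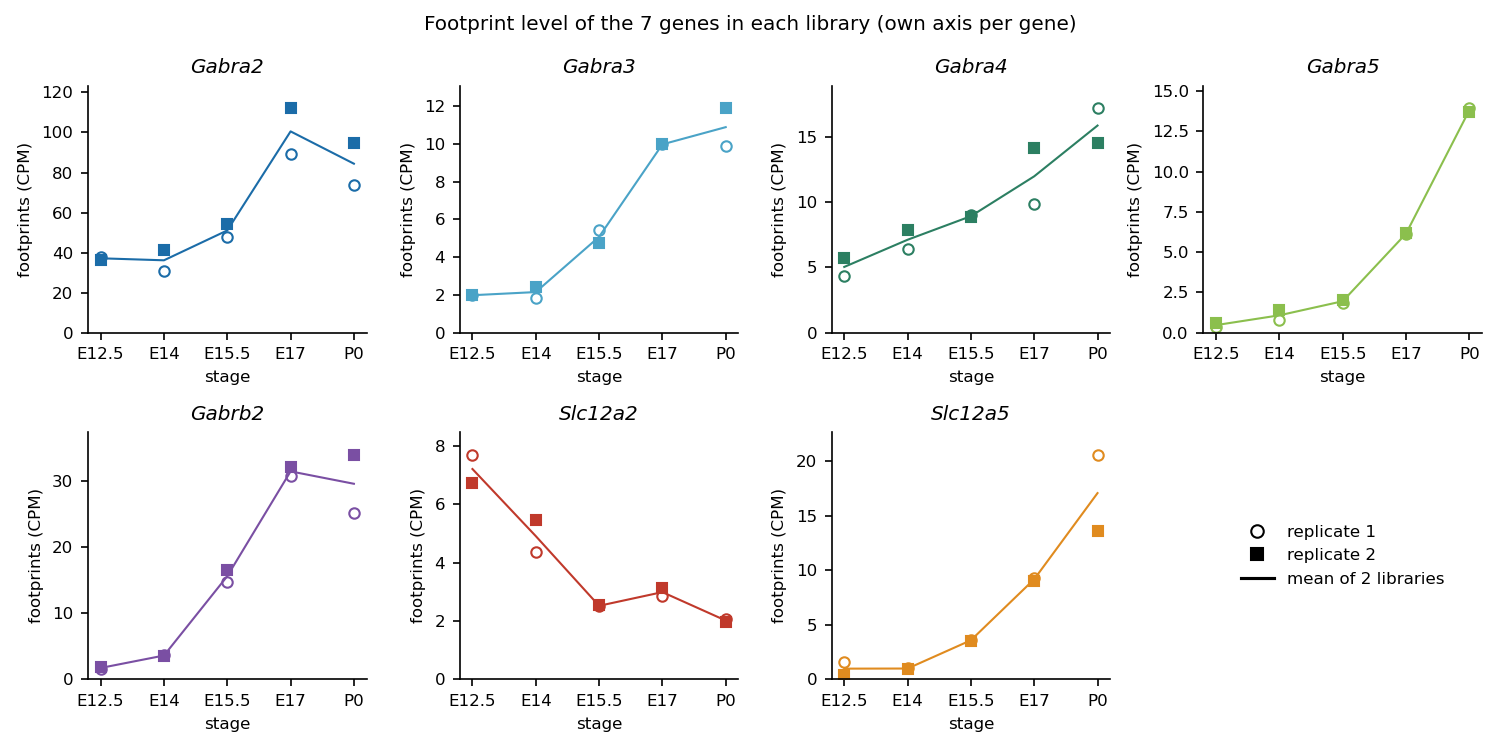
Footprint level (CPM, linear axis from 0, a separate scale for each gene) of the 7 genes at the 5 stages; open circles are replicate 1, filled squares replicate 2 and lines join the means of the 2 libraries. Slc12a2 goes from 7.22 CPM (E12.5) to 2.01 (P0) while the other 6 genes end above their E12.5 level.

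Slc12a2, the sodium-potassium-chloride importer NKCC1, is used by progenitors and glia as well as by young neurons. It gave 7.70 and 6.73 CPM (E12.5), 4.37 and 5.45 (E14), 2.50 and 2.53 (E15.5), 2.86 and 3.12 (E17), and 2.07 and 1.96 (P0). Both E14 libraries lay below both of E12.5, and the 6 later libraries all lay below those of E14, although both E17 libraries were slightly above both of E15.5. The fall from E14 to E15.5 was called, at -0.96 (SE 0.16, limma-voom adjusted p = 0.00232), also without any one library. The other steps were not called: the change was -0.54 up to E14 (SE 0.14, limma-voom adjusted p = 0.119), and those of E17 against E15.5 and of P0 against E17 were 0.24 and -0.58 (SE 0.17 and 0.18, limma-voom adjusted p = 0.416 and 0.0570). Without P0 replicate 1 the step up to E14 and the step up to P0 were called, at -0.53 (limma-voom adjusted p = 0.0491) and -0.60 (limma-voom adjusted p = 0.0467). The fitted change over the whole span was -1.84 (SE 0.17, limma-voom adjusted p = 3.86e-05). In mean CPM, E12.5 was 3.59 times P0.

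The choroid plexus and the vessels of the brain also make Slc12a2, and markers of tissue next to the cortex moved over these stages. The summed level of 10 choroid plexus markers was 295 to 377 CPM (E12.5), 1194 to 1197 (E14), 11.6 to 14.9 (E15.5), 6.89 to 8.15 (E17) and 15.3 to 15.8 (P0), with Prlr at 0 (E15.5). That of 5 meningeal fibroblast markers was 95.6 to 98.9 CPM (E12.5), 59.4 to 69.0 (E14) and between 2.28 and 6.57 later. For 5 blood vessel markers the range was 21.4 to 29.7 CPM up to E14 and 4.96 to 14.3 afterwards. Choroid plexus markers were thus highest at E14, where Slc12a2 was lower than at E12.5, and their drop, like that of the other lists, fell on the same step as the called fall of Slc12a2. Their part in it was not tested. The 9 progenitor markers summed to 2188 to 2232 CPM (E12.5), 2187 to 2263 (E14) and 2161 to 2317 (E15.5). At E17 they summed to 2392 to 2517 CPM and at P0 to 1458 to 1993, and their part was not tested either.

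Slc12a5, the potassium-chloride exporter KCC2 and a marker of maturing neurons, gave 1.54 and 0.374 CPM (E12.5, 28 and 10 counts), 1.02 and 0.919 (E14), 3.62 and 3.50 (E15.5), 9.30 and 9.01 (E17), and 20.6 and 13.6 (P0). The E12.5 libraries lay on either side of those of E14 and from E14 on each stage lay above the one before without overlap. The rises from E14 to E15.5, at 1.88 (SE 0.44, limma-voom adjusted p = 0.0110), and from E15.5 to E17, at 1.36 (SE 0.29, limma-voom adjusted p = 0.0284), were called. The first of these was not called without E14 replicate 1, E14 replicate 2 or E15.5 replicate 1, where limma-voom adjusted p was 0.0538, 0.0932 and 0.0503 at changes of 1.93, 1.78 and 1.85, and the other was lost without either E14 library too. From E17 to P0 the change was 0.80 (SE 0.26, limma-voom adjusted p = 0.0615). It was 1.20 without P0 replicate 2, 0.80 without either E12.5 library and 0.91 with total counts only, and was called in these 4 fits. Over the whole span mean CPM rose 17.8-fold. The fitted log2 fold change was larger than that, at 4.56 (SE 0.50, limma-voom adjusted p = 8.61e-05). It was 3.35 without E12.5 replicate 2 and 5.35 without E12.5 replicate 1, and was called in both.

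The ratio of Slc12a5 to Slc12a2 footprints was taken within each library, where depth and scaling cancel. It was 0.200 and 0.0556 (E12.5), 0.232 and 0.169 (E14), 1.45 and 1.38 (E15.5), 3.26 and 2.89 (E17), and 9.95 and 6.93 (P0). From E14 on, no stage overlapped the next, and the exporter had fewer footprints than the importer in all 4 libraries up to E14 and more in all 6 from E15.5 on. Exact 95% intervals, which cover counting error only, ran from 1.08 to 1.94 and from 0.981 to 1.96 in the E15.5 libraries, so that in the latter a ratio of 1 was within counting error. The means were 0.128 ± 0.102 (E12.5), 0.200 ± 0.045 (E14), 1.41 ± 0.04 (E15.5), 3.07 ± 0.26 (E17) and 8.44 ± 2.14 (P0), with n = 2 and ± for the SD. The 2 mRNAs have coding sequences of their own length, which no source used here gave, so the stage at which the ratio passes 1 is one of footprints and not of transporters made.

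Shares of the 4 alpha subunits were likewise taken within each library, over 808 to 5661 footprints, and compared between stages only. Gabra2 took 83.2% ± 2.5 of them (E12.5), 76.1% ± 2.1 (E15.5), 78.1% ± 0.9 (E17) and 67.3% ± 4.2 (P0), with ± for the SD and n = 2. The share of Gabra5 was 1.04% ± 0.42 (E12.5), 4.83% ± 0.67 (E17) and 11.1% ± 1.4 (P0). Both P0 libraries had a lower Gabra2 share and a higher Gabra5 share than all 8 earlier libraries. Gabra3 took 4.44% ± 0.02 (E12.5) and 8.71% ± 0.13 (P0), and Gabra4 11.3% ± 2.1 and 12.9% ± 3.0, with the Gabra4 libraries of these stages overlapping. No test was run on the ratio or the shares.

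**Figure D2:**
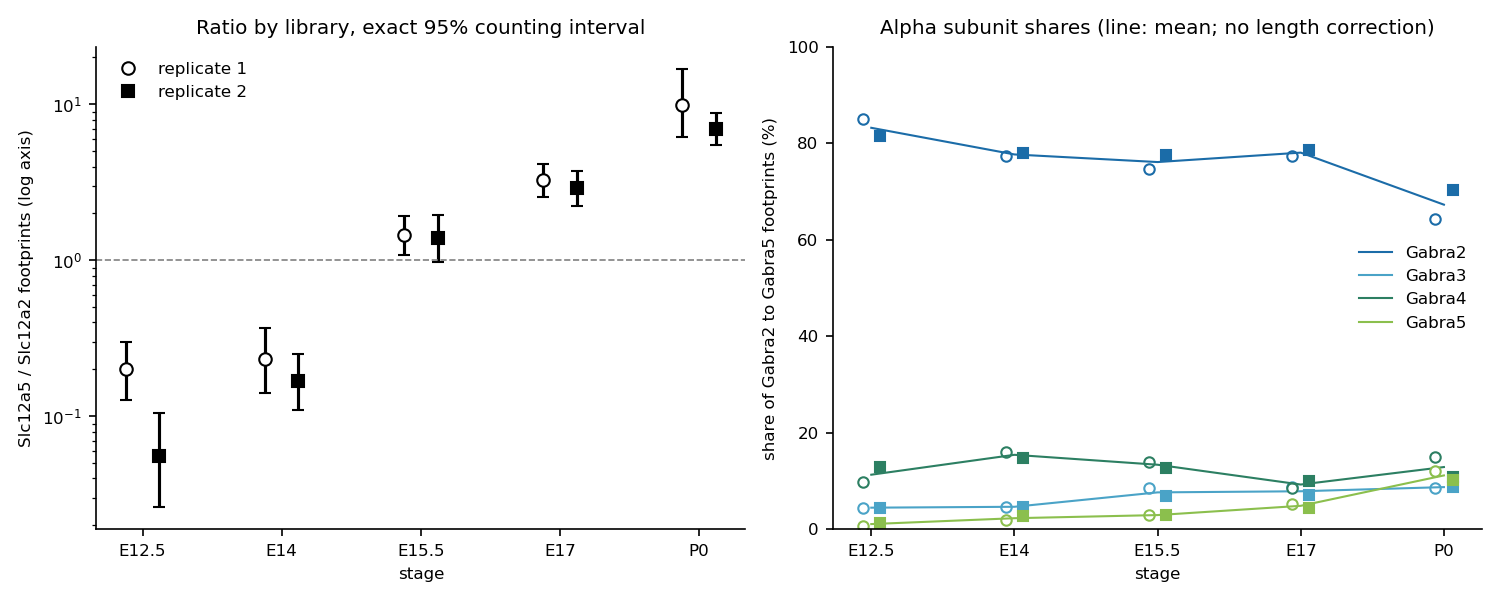
Left, the ratio of Slc12a5 to Slc12a2 footprints in each library on a log axis, with bars for the exact 95% counting interval and a dashed line at a ratio of 1; right, the percentage of Gabra2 to Gabra5 footprints taken by each of these genes, with lines through the stage means. The ratio lies under 1 in the 4 libraries of E12.5 and E14 and above 1 in the 6 later ones, and the Gabra5 share is highest at P0.

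Step by step, none of the 7 genes was called between E12.5 and E14, where 0.497% of all genes were called higher and 0.141% lower. Unadjusted limma-voom p were under 0.05 for Gabrb2 (0.00193), Slc12a2 (0.00513) and Gabra5 (0.0281), edgeR's quasi-likelihood test called 0 of the 7 genes, and DESeq2 called 1, Gabrb2. Between E14 and E15.5, 4 genes were called higher (Gabra3, Gabra5, Gabrb2 and Slc12a5), where 16.5% of all genes were, and 1 lower (Slc12a2), where 19.6% were. Of all genes called on this step, 45.6% were higher with TMM and 72.7% with total counts only. The median of the 7 changes was 0.83, beside -0.01 over all genes. Between E15.5 and E17, 5 genes were called higher (Gabra2, Gabra3, Gabra5, Gabrb2 and Slc12a5) and 0 lower, beside 5.61% of all genes higher and 3.43% lower. For Gabra4 and Slc12a2 the changes were 0.39 and 0.24. Between E17 and P0, 1 gene was called higher (Gabra5) and 0 lower, beside 9.46% and 11.1% of all genes. The share of higher genes among all those called here was 46.1% after TMM scaling but 63.4% when only total counts were used, and between E12.5 and E14 it was 77.9% and 90.9%. Slc12a2, at a change of -0.58, was the gene nearest to a call in the lower direction.

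The 5 calls between E15.5 and E17 needed all 4 libraries of these stages. Without any one of their 4 libraries limma-voom called none of the 7 genes, in fits that left that library's stage without a replicate. The changes themselves ranged over 0.81 to 1.14 for Gabra2, 0.87 to 1.07 for Gabra3, 1.59 to 1.70 for Gabra5, 0.93 to 1.09 for Gabrb2 and 1.33 to 1.38 for Slc12a5 when any one library was left out. With total counts only in place of TMM, the median of all genes moved by 0.29 from E14 to E15.5 and by 0.51 from E12.5 to P0. Relative to that median, Gabra2 and Gabra4 changed by 0.51 and 0.33 from E14 to E15.5 under both scalings, although both were called with total counts only.

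**Figure D3:**
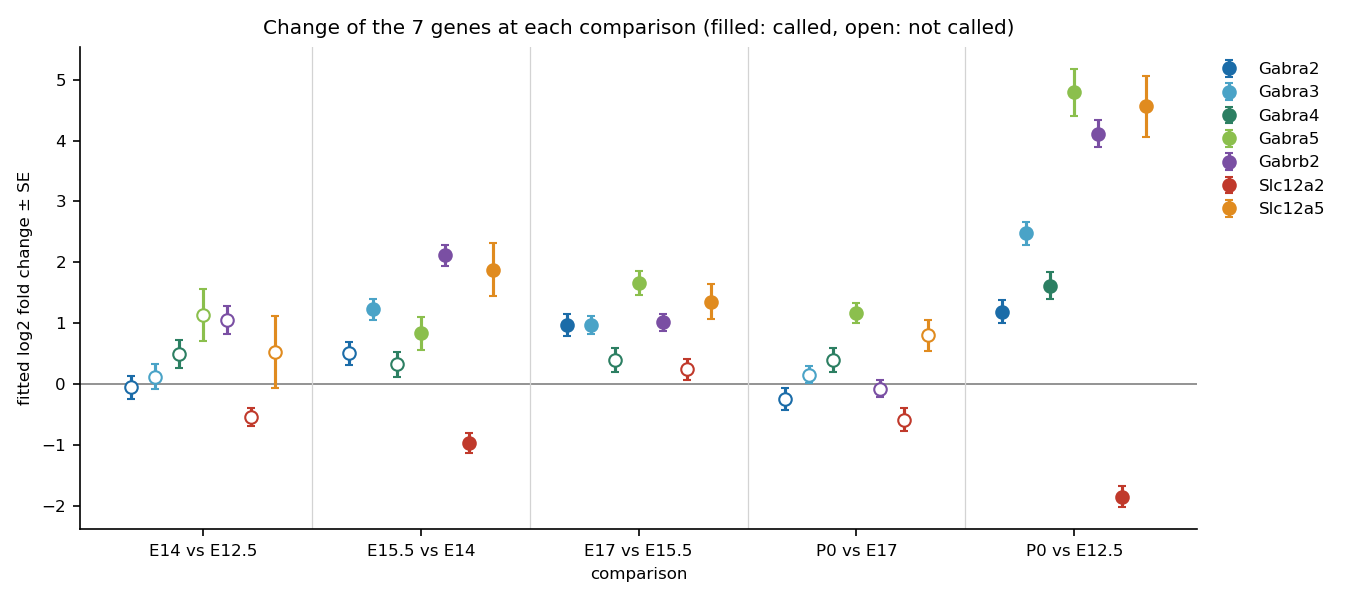
Fitted log2 fold change with its SE (vertical axis) of the 7 genes in the 4 comparisons of adjacent stages and for P0 against E12.5; filled points were called changed by limma-voom and open ones were not. Most rises lie between E14 and E17, where 4 and then 5 genes were called higher, and Gabra5 is the only gene called between E17 and P0.

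Genes of the pathway were described in 8 lists, whose counts for P0 against E12.5 stand beside the 30.1% of all genes called higher and the 32% called lower. The other subunits of the receptor were measured as a list of 14, of which 6 passed the filter. All 6 were called higher at P0 than at E12.5 and 0 lower, with a median change of 2.44. Gabrb1, encoding beta1, changed by 3.51. Of the 8 subunits that did not pass, Gabre and Gabrd had the most footprints, 81 and 72 over the 10 libraries, and none was at 0 in all libraries.

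Genes that make, load, take up and break down GABA passed the filter for 8 of 9, with 7 called higher and 1 lower at P0. The GABA-synthesizing enzyme Gad1 went from 1.65 and 2.21 CPM (E12.5) to 51.1 and 54.1 (P0), a change of 4.74 (SE 0.18, limma-voom adjusted p = 5.74e-07). Its steps from E14 to E15.5, of 2.36, and from E17 to P0, of 1.05, were called. Gad2, the other such enzyme, changed by 3.45, and Slc32a1, the vesicular GABA transporter, by 2.49. Slc6a11, the GABA transporter of astrocytes, had the largest change of the list, at 5.11 (SE 0.58, limma-voom adjusted p = 1.04e-04), from 0.110 and 0.299 CPM to 9.68 and 6.92. Slc6a13, a GABA and taurine transporter of meninges and vessels, was called lower and had 16 and 22 counts at E12.5 and 0 and 1 (P0). Its only called step was from E14 to E15.5, at -3.94 (SE 0.56, limma-voom adjusted p = 0.00119). The meningeal and vessel markers given for Slc12a2 dropped on the same step. Markers of the ganglionic eminence and interneurons, 12 genes, summed to 48.5 to 56.7 CPM (E12.5), 185 to 186 (E15.5) and 233 to 276 (P0), with Lhx8 at 0 in all stages but E14 and Gsx2 at 0 (E12.5). Astrocyte markers, 7 genes, summed to 58.5 to 66.1 CPM (E12.5), 33.4 (E15.5) and 96.5 to 99.2 (P0), with S100b at 0 (E12.5). The part of any of these markers in these genes was not tested.

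All 6 genes of the GABA-B receptor list passed the filter, and 5 were called higher and 1 lower at P0. Gabbr1 and Gabbr2, the obligate pair of this G protein-coupled receptor, changed by 1.41 and 4.06, the latter from 3 and 2 counts at E12.5. Of the auxiliary subunits, Kctd16 changed by 3.59, from 3 and 1 counts at E12.5, and Kctd12b by -0.86 (limma-voom adjusted p = 0.00153 and 0.00712).

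Anchoring and trafficking of GABA-A receptors was represented by 20 genes, all of which passed, with 11 called higher, 3 lower and a median change of 0.74. Gphn, the scaffold gephyrin, changed by 0.83 (SE 0.15, limma-voom adjusted p = 0.00140), from 11.4 and 10.2 CPM to 16.1 and 21.4. Shisa7, a receptor auxiliary protein, changed by 3.21 and Iqsec3, a gephyrin-binding exchange factor, by 2.50. Rdx, which tethers alpha5 receptors outside synapses, changed by -1.51 (SE 0.28, limma-voom adjusted p = 0.00172), from 147 and 125 CPM to 31.1 and 66.5. Rdx footprints thus fell over the span in which those of Gabra5 rose, with no step of Rdx between adjacent stages called. Any link between them was not tested. Hap1, a trafficking adaptor, changed by -1.31.

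Among the other cation-chloride cotransporters, 5 of 7 passed, and 1 was called higher and 2 lower at P0. Slc12a7, the potassium-chloride exporter KCC4, went the opposite way to Slc12a5, from 5.01 and 6.10 CPM (E12.5) to 3.75 and 3.77 (E14), 1.33 and 1.22 (E15.5), 1.40 and 1.20 (E17), and 0.653 and 0.430 (P0). Its change over the span was -3.56 (SE 0.27, limma-voom adjusted p = 1.08e-05), with the steps from E14 to E15.5, of -1.54, and from E17 to P0, of -1.47, both called, and the marker levels of choroid plexus and meninges given for Slc12a2 stand beside it too. Slc12a8 changed by 1.32 and Slc12a9 by -0.76.

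All 9 regulators of these transporters passed, with 3 called higher and 3 lower at P0, in both directions a share near that of all genes, and a median change of -0.28. Neto2, a KCC2-interacting protein, went from 7.87 and 7.52 CPM (E12.5) to 33.2 and 32.5 (E17) and 16.0 and 24.5 (P0), so that it rose from E14 to E17 and was called lower from E17 to P0, at -0.67 (SE 0.18, limma-voom adjusted p = 0.0322). Wnk2, a chloride-sensitive kinase, changed by 1.20 over the whole span. Stk39, the kinase SPAK that phosphorylates both transporters, fell with Slc12a2, from 15.8 and 15.0 CPM (E12.5) to 5.66 and 8.09 (P0), a change of -1.09 (SE 0.15, limma-voom adjusted p = 3.64e-04). Ckb, the brain creatine kinase, changed by -0.76.

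Other chloride channels and exchangers passed the filter for 10 of 11, with 4 called higher and 3 lower, again near the shares of all genes, and a median of 0.11. The bicarbonate transporters Slc4a10 and Slc4a3 changed by 3.03 and 2.06, and the exchanger Slc4a2 and the endosomal Clcn5 by -1.95 and -1.72. Of the 5 glycine receptor subunits, which form the related chloride channel, 2 passed and 1 was called higher: Glra2, the fetal alpha subunit, changed by 1.61, from 2.15 and 2.06 CPM to 6.53 and 6.37.

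**Figure D4:**
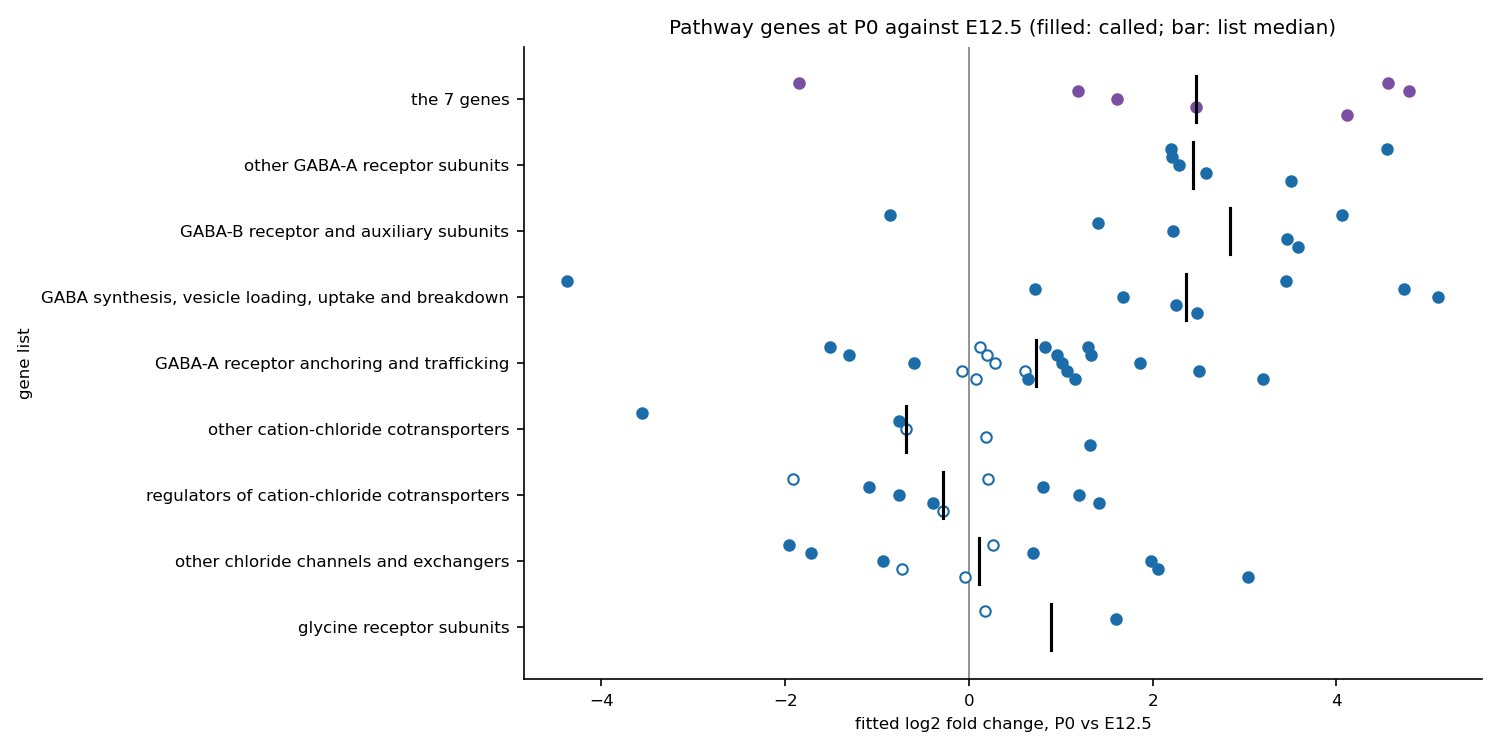
Fitted log2 fold change at P0 against E12.5 (horizontal axis) for the 7 genes and for the genes of 8 pathway lists that passed the filter, each point a gene, filled where called by limma-voom, with a bar at the list median; the vertical spread of points has no meaning. The 6 other GABA-A subunits all lie above 2, while the transporter and regulator lists have genes on both sides of 0.

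Across the 10 libraries the 6 rising genes shared one broad course. Pearson's correlation of their log2 CPM ran from 0.843 (Gabra2 with Gabra4) to 0.971 (Gabra4 with Gabra5), and that of Slc12a2 with each of them from -0.932 (Gabrb2) to -0.706 (Gabra2). Libraries of a stage are not independent conditions, and any genes that move with stage correlate in this way. Among 9208 other genes that averaged 100 counts or more, the most alike to Gabra2 were Tpd52 (r = 0.978) and Pcdh9 (0.973), to Gabra3 Fam171b (0.995) and Dpp6 (0.994), to Gabra4 Plch2 (0.986) and Rasgrp2 (0.977), and to Gabra5 Camk1 (0.994) and Rasgrp2 (0.989). For Gabrb2 they were Ttc9 (0.997) and Thra (0.996), for Slc12a5 Bbc3 (0.988) and Ccdc184 (0.988), and for Slc12a2 Clcc1 (0.992) and Lin54 (0.989). Rasgrp2 was in the list of both Gabra4 and Gabra5, the pair of members that were most alike.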

How the data were processed

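Ribo-seq footprints of 10 neocortex libraries were deposited by the authors as whole-number counts per gene, not scaled to depth. Per the methods, duplicate reads were collapsed, non-coding RNA reads removed and the rest aligned with STAR (2.7.0, per the submitters' processing notes), multimapping reads included. The methods derive abundances per transcript with DeepShape-prime and, from these, gene counts corrected for length with tximport, but whether the deposited table holds that output is not given in the sources used here. If it does, the counts are estimates and the counting intervals are approximate. How multimapping reads were divided is not given either, and similar subunit genes could share footprints. Symbols came from the reference list of gene names (22274 of 22373 identifiers).

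Counts were tested in R 4.3.3 with limma-voom (limma 3.58.1) on TMM factors (edgeR 4.0.16), with 1 coefficient per stage over all libraries and two-sided moderated tests. Alternatives were edgeR's quasi-likelihood test, DESeq2 1.42.0, other scalings, no filter, sample quality weights, a replicate block, only the 2 stages compared, and leaving out each library. The code was tested on simulated counts. The alpha subunit shares were to be taken per coding length, which was not used here, so they are shares of footprints. Pathway genes named are those with the 2 largest rises and the 2 largest falls called for P0 against E12.5 in each list, plus genes set by name (Gabrb1, Gad1, Gad2, Slc32a1, Gphn, Gabbr1 and Gabbr2); some genes that the rule names are not reported here. Gabre and Gabrd were named after their values were seen. The members, lists and rules were chosen with earlier results of these data known. The promoter motifs were chosen after the counts had been analysed.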

Additional observations from a re-analysis of the deposited data

How the results depend on the processing

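All 7 calls for P0 against E12.5 were kept in every alternative, and no member changed direction in that comparison, from E14 to E15.5 or from E15.5 to E17. Between E12.5 and E14, the 86 calls over all genes became 399 with DESeq2, 143 with total counts only, 27 without the filter, 655 with quality weights and 11 with only those stages. Members called there became 1 with DESeq2 and 1 with quality weights, in both Gabrb2 (1.06 and 1.05), and Gabra2 reversed to 0.0091 with total counts only. From E14 to E15.5, Gabra5 was not called with edgeR (0.82), DESeq2 (0.81) or without the filter (0.86), while Gabra2 was with total counts only (0.80), quality weights (0.49) and only those stages (0.50), and Gabra4 with total counts only (0.62). From E15.5 to E17, Slc12a5 was not called with edgeR (1.36) or without the filter (1.35), and the 1219 calls over all genes became 773 without the filter, 3717 with quality weights and 3267 with only those stages. From E17 to P0, total counts only called 2 members, with Slc12a5 at 0.91 and Gabrb2 reversed to 0.042. With only those stages limma-voom called 0 members, Gabra5 being at 1.17, and 0 of all genes, with 2962 at an unadjusted p under 0.05, and with quality weights it called 698 of all genes instead of 2767. The cause of these shifts was not tested.

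Replicate numbers did not pair the libraries: the correlation over 4559 genes of same-numbered deviations between stages ran from -0.634 to 0.426. With the replicate block, 4 genes were called between E12.5 and E14, Gabra2 was called from E14 to E15.5 (0.51) and Gabra5 was not (0.81), and no other member call changed.

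Leaving out 1 library at a time gave 0 to 2 members called between E12.5 and E14, and 0 to 1062 of all genes. The counts were 3 to 6 and 2739 to 6329 for E15.5 against E14, 0 to 5 and 0 to 2863 for E17 against E15.5, and 1 to 2 and 552 to 4419 for P0 against E17. Where a member's call or direction changed, its log2 fold change for E14 against E12.5 ranged from -0.26 to 0.16 (Gabra2), -0.092 to 0.30 (Gabra3), 0.95 to 1.19 (Gabrb2), -0.71 to -0.39 (Slc12a2) and -0.68 to 1.32 (Slc12a5). For E15.5 against E14 the range was 0.30 to 0.71 (Gabra2), 0.47 to 1.33 (Gabra5) and 1.78 to 1.93 (Slc12a5). For E17 against E15.5 it was 0.81 to 1.14 (Gabra2), 0.87 to 1.07 (Gabra3), 1.59 to 1.70 (Gabra5), 0.93 to 1.09 (Gabrb2) and 1.33 to 1.38 (Slc12a5). For P0 against E17 it was -0.29 to 0.11 (Gabrb2), -0.65 to -0.47 (Slc12a2) and 0.57 to 1.20 (Slc12a5). The reversals were those of Gabra2 (0.16 without E14 replicate 1), Gabra3 (-0.092 without E14 replicate 2), Slc12a5 (-0.68 without E12.5 replicate 2) and Gabrb2 (0.11 without P0 replicate 1).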
